A study of Mus musculus with 16 samples.

Results

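Transcripts of 9 genes of hepatic glucose metabolism were followed in cultured mouse primary hepatocytes: the glucose transporter Slc2a2, the regulatory gene Gckr, the gluconeogenic enzymes Pck1, Fbp1 and Pcx, the transcriptional regulators Ppargc1a and Foxo1, and the insulin receptor substrates Irs1 and Irs2. The members were the rows, among 55416 Ensembl gene IDs, whose ID maps to 1 of these symbols, and all 9 were found. The glucose-6-phosphatase catalytic subunit, G6pc, is not a member and is given beside them. Total RNA was sequenced in 16 samples, 4 in each of 4 groups. HKO cells carried Cre recombinase under the albumin promoter (genotype Alb-cre+), in a loxP cross made to delete Smpd3 in hepatocytes, and received 0.4 mM palmitic acid or vehicle for 24 h. FLOX cells lacked the Cre transgene (Alb-cre-) and received the same treatments. Smpd3 encodes a neutral sphingomyelinase. Palmitic acid, a saturated fatty acid, was used to model steatohepatitis in culture. Nothing in the labels ties the 4 replicates of a group to different animals or culture dishes, and the p-values below therefore rest on a spread that could be technical.

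The liver takes up glucose after a meal and releases it in fasting. Slc2a2 (GLUT2) carries glucose across the hepatocyte membrane in both directions, and the product of Gckr, a nuclear regulatory protein, restrains glucose phosphorylation in fasting. In fasting, Pcx, Pck1 and Fbp1 catalyse steps of gluconeogenesis that bypass the irreversible reactions of glycolysis. Glucagon, through cAMP, raises Ppargc1a and Pck1, and FOXO1 drives gluconeogenic genes until insulin, acting through IRS1, IRS2 and AKT, excludes it from the nucleus.

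Levels are in TPM, the authors' measure of transcript abundance, which is corrected for transcript length and scaled to the same total in each library. The read depth behind them is unknown, and the error given with each mean is the spread of 4 samples (SD, n = 4 throughout). Differences were tested on log2(TPM + 1) with limma, with p-values adjusted over all 11858 genes that reached 1 TPM in at least 4 samples, and a difference was called below an adjusted p of 0.05. On this scale the change of a gene at a low level is understated. Of the 9 members 7 passed the filter. Ppargc1a and Irs1 did not, and their p-values come from the fit with no filter. Smpd3 averaged 7.82 ± 1.1 TPM in HKO cells with palmitic acid and 5.29 ± 0.71 TPM in HKO cells with vehicle, against 46.0 ± 2.4 TPM in FLOX cells with palmitic acid and 32.0 ± 4.1 TPM in FLOX cells with vehicle, and every HKO sample lay below every FLOX sample. All 12 hepatocyte markers examined reached 1 TPM, and of the 8 stellate cell and 6 lymphocyte markers none did, with Cd3g and Nkg7 among those at 0 in all samples. FLOX palmitic acid replicate 1 and FLOX vehicle replicate 1 stood at opposite ends of the third principal component (7.53% of the variance), with scores of 19 and -16.1, although FLOX palmitic acid replicate 2 (-14.1) and HKO vehicle replicate 2 (-12) lay near the lower end too. In the same 2 libraries the median of the genes with the longest transcripts, minus that of the shortest, was -0.21 and 0.08 (log2, relative to each gene's mean), against 0.044 to 0.11 in the other FLOX palmitic acid samples and -0.18 to -0.1 in the other FLOX vehicle samples.

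**Figure D1:**
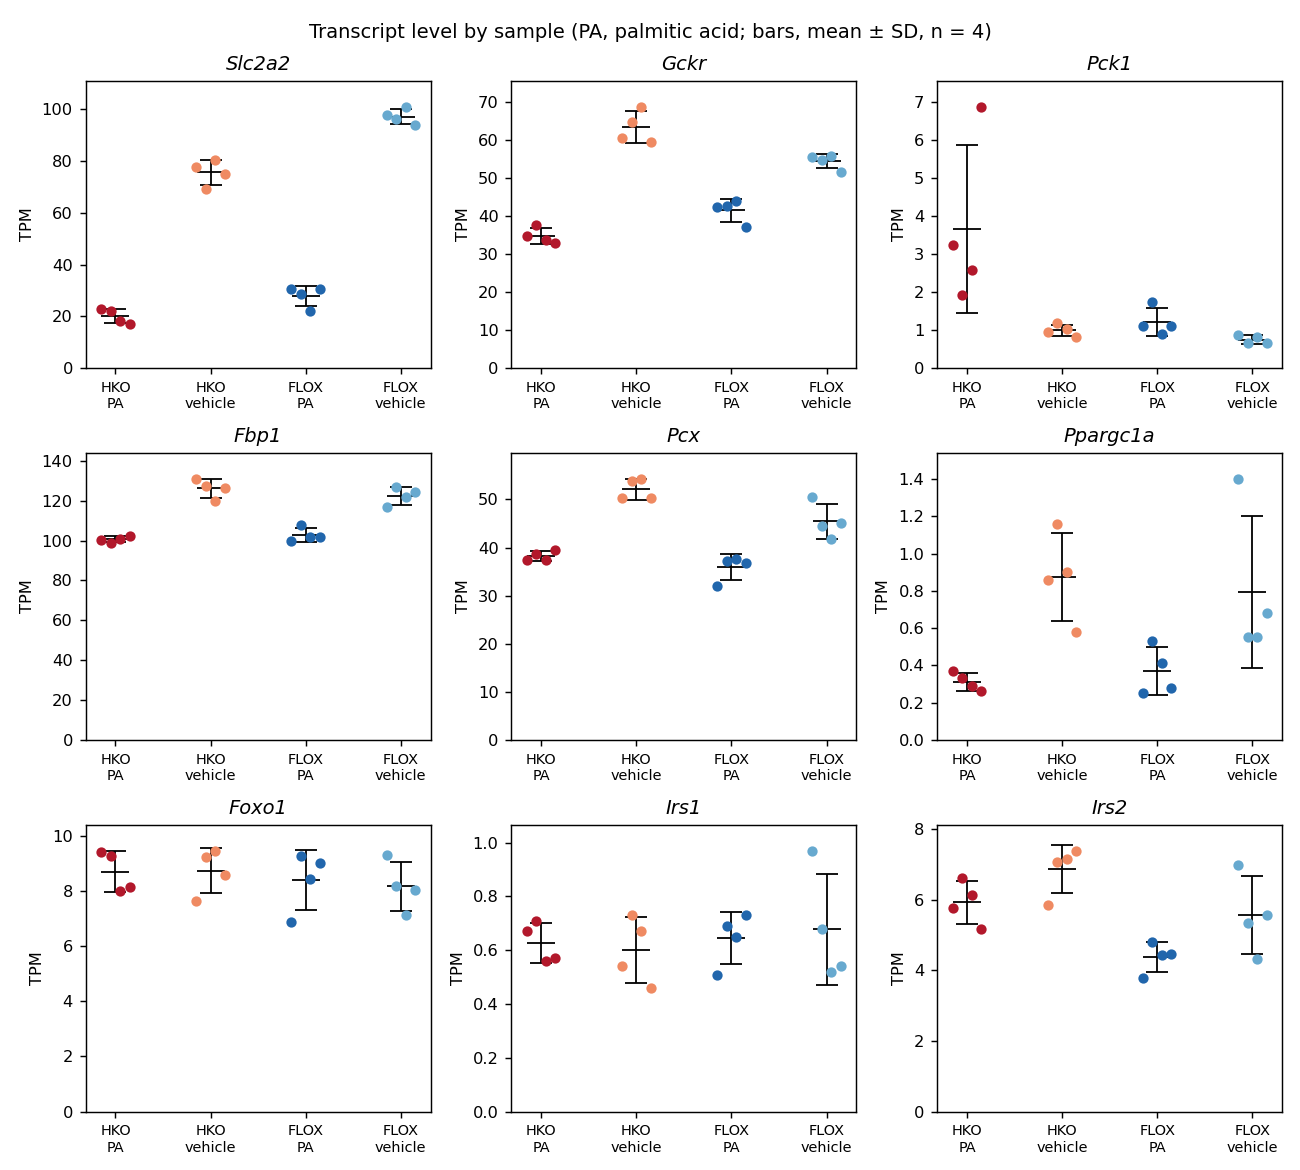
TPM of the 9 members (vertical axes, from 0) in each sample of the 4 groups, with points for samples and bars for mean ± SD (n = 4, PA is palmitic acid). Slc2a2 lay between 17.2 and 30.6 TPM with palmitic acid and between 69.4 and 101 TPM with vehicle, while Pck1 reached 6.87 TPM in 1 HKO sample with palmitic acid and Foxo1 overlapped between all groups.

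Slc2a2 had the largest change of the tested members with palmitic acid, in both genotypes, and was also lower in HKO than in FLOX cells. Its levels were 23.0, 22.1, 18.3 and 17.2 TPM in HKO cells with palmitic acid and 77.8, 69.4, 80.3 and 75.0 TPM in HKO cells with vehicle. In FLOX cells they were 30.6, 28.5, 22.1 and 30.5 TPM with palmitic acid and 97.6, 96.3, 101 and 94.1 TPM with vehicle. The palmitic acid samples of each genotype lay below all of its vehicle samples. The mean with palmitic acid was 0.267 times that with vehicle in HKO cells (log2 fold change -1.86 ± 0.099, ± SE, limma adjusted p = 9.33e-10) and 0.287 times in FLOX cells (-1.78 ± 0.099, limma adjusted p = 2.14e-09). In bulk RNA, fewer cells with a transcript and less of it per cell cannot be told apart. The genotypes did not overlap with vehicle, where the difference of HKO minus FLOX was -0.36 ± 0.099 (limma adjusted p = 0.0274). With palmitic acid it was -0.45 ± 0.099 (limma adjusted p = 0.00837), and the ranges met, HKO replicate 1 lying above FLOX replicate 3 and HKO replicate 2 level with it. The 2 responses to palmitic acid differed by -0.089 ± 0.14 (HKO minus FLOX, limma adjusted p = 0.946). The call between genotypes with vehicle was lost in 10 of 27 alternatives: without the filter (limma adjusted p = 0.0692), with median-ratio scaling (0.0649), quantile normalization (0.0684) or the length correction (0.0586), and without FLOX vehicle replicate 1, 2, 3 or 4 (limma adjusted p = 0.054, 0.0554, 0.0697 and 0.0504) or HKO vehicle replicate 2 or 4 (0.0827 and 0.0588). The call with palmitic acid was lost when only the 2 groups compared were fitted (0.0688).

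Gckr also fell with palmitic acid, and it fell more in HKO than in FLOX cells. Its levels were 34.8, 37.7, 33.8 and 33.0 TPM in HKO cells with palmitic acid and 60.5, 64.9, 68.7 and 59.6 TPM in HKO cells with vehicle. In FLOX cells they were 42.5, 42.6, 44.1 and 37.2 TPM with palmitic acid and 55.5, 54.8, 55.9 and 51.7 TPM with vehicle. No palmitic acid sample overlapped a vehicle sample, and the order of the genotypes turned round between the treatments: HKO cells were the higher with vehicle and, but for 1 sample, the lower with palmitic acid. The mean ratio of palmitic acid to vehicle was 0.549 in HKO and 0.763 in FLOX cells, and the log2 fold change was -0.85 ± 0.060 in HKO cells (limma adjusted p = 2.45e-08) and -0.38 ± 0.060 in FLOX cells (limma adjusted p = 1.36e-04). HKO minus FLOX was -0.25 ± 0.060 with palmitic acid and 0.21 ± 0.060 with vehicle (limma adjusted p = 0.0146 and 0.0298). The responses themselves differed by -0.46 ± 0.085 (limma adjusted p = 0.0386). That last call stood near the threshold: it was lost in 17 of 26 alternatives. All 26 gave -0.51 to -0.42, with limma adjusted p from 0.0177 to 0.152. Of the 16 fits that leave out a single sample it held only in those without FLOX palmitic acid replicate 4, HKO palmitic acid replicate 2 or HKO vehicle replicate 4. Between genotypes, the Gckr call with vehicle was lost in 5 of 27 alternatives. These were the fit without the filter and those without FLOX vehicle replicate 2 or 4 or HKO vehicle replicate 2 or 3 (limma adjusted p = 0.0595, 0.0926, 0.0778 and 0.1 for the left-out samples). The Gckr call with palmitic acid was lost when only the 2 groups compared were fitted (0.0635).

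Of the gluconeogenic enzymes, Pck1 was scarce in these cultures and was the member that rose. Pck1 makes phosphoenolpyruvate from oxaloacetate in the cytosol. It had 3.24, 1.93, 2.59 and 6.87 TPM in HKO cells with palmitic acid and 0.94, 1.18, 1.03 and 0.83 TPM in HKO cells with vehicle. FLOX cells held 1.12, 1.75, 0.91 and 1.1 TPM with palmitic acid and 0.87, 0.67, 0.82 and 0.65 TPM with vehicle. All HKO palmitic acid samples lay above every other sample, and the samples that took Pck1 past the filter were mostly those with palmitic acid. The mean was 3.68 times that of vehicle in HKO cells (log2 fold change of TPM + 1 of 1.12 ± 0.22, limma adjusted p = 7.85e-04) and 1.62 times in FLOX cells (0.33 ± 0.22, limma adjusted p = 0.266). HKO cells had 3 times the FLOX level with palmitic acid (0.98 ± 0.22, limma adjusted p = 0.00973) and 1.32 times with vehicle (0.19 ± 0.22, limma adjusted p = 0.679). The difference of the responses was 0.79 ± 0.31 and was not called (limma adjusted p = 0.532). Without HKO palmitic acid replicate 4, the highest sample, the HKO response was 0.83 ± 0.145 (limma adjusted p = 4.00e-04). The call between genotypes with palmitic acid was lost when only the 2 groups compared were fitted (0.0757).

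The promoter windows of Pck1, whose rise was the exception, of Slc2a2, whose fall was the largest, and of Gckr are shown for comparison. Each line gives the 250 bases before the start site, 5′ to 3′ on the gene's strand, from RefSeq on GRCm38.p6 (chr2:173152823-173153072 for Pck1, chr3:28697653-28697902 for Slc2a2 and chr5:31297313-31297562 for Gckr, all plus strand). The mouse build used by the authors is not given in the sources used here. Capitals mark matches on either strand to 5 motifs: the cAMP response element TGACGTCA, its variant TTACGTCA, the short core TGACG, the FOXO motif GTAAACA and the insulin response core CAAAACA.
Pck1: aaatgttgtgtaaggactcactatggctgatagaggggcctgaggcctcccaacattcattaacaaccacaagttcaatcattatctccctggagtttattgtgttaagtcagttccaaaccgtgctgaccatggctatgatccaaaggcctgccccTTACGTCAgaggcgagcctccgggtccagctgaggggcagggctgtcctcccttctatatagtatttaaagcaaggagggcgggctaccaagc
Slc2a2: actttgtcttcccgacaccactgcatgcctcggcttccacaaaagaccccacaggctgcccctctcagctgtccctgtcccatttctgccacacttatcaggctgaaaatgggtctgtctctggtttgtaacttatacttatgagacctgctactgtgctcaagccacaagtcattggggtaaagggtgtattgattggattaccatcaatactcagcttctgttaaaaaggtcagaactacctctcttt
Gckr: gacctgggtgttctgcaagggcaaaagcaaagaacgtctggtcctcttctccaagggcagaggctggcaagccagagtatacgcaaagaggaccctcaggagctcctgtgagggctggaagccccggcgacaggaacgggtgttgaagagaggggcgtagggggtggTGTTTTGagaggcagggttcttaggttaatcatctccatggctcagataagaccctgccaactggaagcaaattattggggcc
The Pck1 window held TTACGTCA from -93 to -86 relative to the start site, and the short core on the other strand lies within it. This variant was in 0.447% of the 32851 RefSeq windows of this length. The Gckr window held CAAAACA on the other strand from -83 to -77, a match present in 5.56% of windows. No motif of the 5 was in the Slc2a2 window. Windows were found for all 9 members, 10 in all since Pcx has 2. Among the others, CAAAACA was found for Irs1 and Irs2 and the short core, present in 17.8% of all windows, for Irs1 and Ppargc1a, while TGACGTCA (1.55% of windows) and GTAAACA (3.17%) were in none. A match is a description of letters and not of binding.

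Fbp1 and Pcx were expressed far above Pck1 and were moderately lower with palmitic acid. Fbp1, the fructose bisphosphatase, had 100.5, 98.7, 101 and 103 TPM in HKO cells with palmitic acid and 131, 127, 120.0 and 126 TPM in HKO cells with vehicle. In FLOX the values were 99.6, 108, 102 and 102 TPM with palmitic acid and 117, 127, 122 and 124 TPM with vehicle. The treatments did not overlap, and the genotypes overlapped under each treatment. The log2 fold change with palmitic acid was -0.32 ± 0.036 in HKO and -0.25 ± 0.036 in FLOX cells (limma adjusted p = 4.01e-06 and 7.19e-05). HKO minus FLOX was -0.029 ± 0.036 with palmitic acid and 0.043 ± 0.036 with vehicle (limma adjusted p = 0.721 and 0.535).

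Pcx, the mitochondrial pyruvate carboxylase, which makes oxaloacetate from pyruvate, had 37.5, 38.8, 37.4 and 39.4 TPM in HKO cells with palmitic acid and 50.3, 53.8, 54.3 and 50.3 TPM in HKO cells with vehicle. FLOX samples gave 32.0, 37.2, 37.7 and 36.9 TPM with palmitic acid and 50.5, 44.4, 41.8 and 45.2 TPM with vehicle. Palmitic acid samples lay below vehicle samples in both genotypes, with a log2 fold change of -0.44 ± 0.060 in HKO cells (limma adjusted p = 3.04e-05) and of -0.33 ± 0.060 in FLOX cells (limma adjusted p = 5.57e-04). HKO minus FLOX was 0.092 ± 0.060 with palmitic acid (limma adjusted p = 0.417) and 0.20 ± 0.060 with vehicle (limma adjusted p = 0.0449), where FLOX replicate 1 lay above 2 HKO samples. The Pcx call with vehicle was lost in 18 of 27 alternatives (limma adjusted p = 0.0503 to 0.136), among them leaving out any single sample other than FLOX palmitic acid replicate 1 or FLOX vehicle replicate 1.

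G6pc, which releases free glucose at the end of the pathway, was scarce too. Its levels were 1.00, 0.91, 1.15 and 2 TPM in HKO cells with palmitic acid and 0.66, 0.53, 0.69 and 0.40 TPM in HKO cells with vehicle, and in FLOX cells 0.49, 1.57, 0.73 and 1.27 TPM with palmitic acid and 0.89, 0.71, 0.67 and 0.93 TPM with vehicle. HKO samples with palmitic acid lay above HKO samples with vehicle (log2 fold change 0.51 ± 0.17, limma adjusted p = 0.0265), and the FLOX groups overlapped (0.13 ± 0.17, limma adjusted p = 0.583). G6pc reached 1 TPM in palmitic acid samples alone, 3 of HKO and 2 of FLOX cells, so it passed the filter only through the treatment in which it was higher. The HKO call was lost in 6 of 26 alternatives, among them without HKO palmitic acid replicate 4 (0.37, limma adjusted p = 0.0926) and without HKO vehicle replicate 2 or 4 (0.0517 and 0.0727).

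Of the transcriptional regulators Ppargc1a was very low, and its fall with palmitic acid was called in HKO cells alone, while Foxo1 was called in no comparison. Ppargc1a encodes PGC-1α, a coactivator of FOXO1 and HNF4α at gluconeogenic genes. It had 0.37, 0.33, 0.29 and 0.26 TPM in HKO cells with palmitic acid and 0.86, 1.16, 0.90 and 0.58 TPM in HKO cells with vehicle. In FLOX cells it had 0.25, 0.53, 0.41 and 0.28 TPM with palmitic acid and 1.40, 0.55, 0.55 and 0.68 TPM with vehicle, replicate 1 standing apart. The treatments did not overlap in either genotype. In the fit with no filter the log2 fold change of TPM + 1 was -0.51 ± 0.13 in HKO cells (limma adjusted p = 0.0141) and -0.37 ± 0.13 in FLOX cells (limma adjusted p = 0.0822), and without FLOX vehicle replicate 1 the FLOX value was -0.22 (0.164). The FLOX fall passed the threshold in 3 of 25 alternatives, with limma adjusted p as low as 0.0054. The HKO call was lost with the replicate block (0.0629). HKO minus FLOX was -0.055 ± 0.13 with palmitic acid and 0.079 ± 0.13 with vehicle (limma adjusted p = 0.946 and 0.913). The 2 responses of Ppargc1a to palmitic acid differed by -0.13 ± 0.19, which was not called (HKO minus FLOX, limma adjusted p = 0.882).

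Foxo1 had 9.39, 9.26, 8 and 8.12 TPM in HKO cells with palmitic acid and 7.63, 9.24, 9.45 and 8.58 TPM in HKO cells with vehicle. FLOX cells held 6.86, 9.27, 8.42 and 8.99 TPM with palmitic acid and 9.31, 8.17, 7.12 and 8.03 TPM with vehicle. All 4 groups overlapped. The log2 fold change with palmitic acid was -0.0040 ± 0.098 in HKO and 0.033 ± 0.098 in FLOX cells (limma adjusted p = 0.98 and 0.822). HKO minus FLOX was 0.051 ± 0.098 with palmitic acid and 0.088 ± 0.098 with vehicle (limma adjusted p = 0.837 and 0.651).

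The insulin receptor substrates were not called in any comparison. Irs2 had 5.77, 6.60, 6.14 and 5.16 TPM in HKO cells with palmitic acid and 5.85, 7.07, 7.15 and 7.38 TPM in HKO cells with vehicle. In FLOX the values were 3.79, 4.79, 4.43 and 4.46 TPM with palmitic acid and 6.99, 5.35, 4.33 and 5.56 TPM with vehicle. With palmitic acid every HKO sample lay above every FLOX sample, and the difference, 0.37 ± 0.11 on the log2 scale, just missed the threshold (limma adjusted p = 0.053). It passed in 9 of 27 alternatives, among them without FLOX vehicle replicate 1 or 3, HKO palmitic acid replicate 4 or HKO vehicle replicate 1 (limma adjusted p = 0.0258, 0.0305, 0.0429 and 0.0488). With vehicle HKO minus FLOX was 0.27 ± 0.11 (limma adjusted p = 0.142), and 0.37 without FLOX vehicle replicate 1 (0.0344). Palmitic acid gave -0.18 ± 0.11 in HKO and -0.28 ± 0.11 in FLOX cells (limma adjusted p = 0.203 and 0.0692).

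Irs2 and Irs1 have long transcripts, as has Foxo1, and the 2 FLOX libraries numbered 1 deviated with transcript length. After a correction for transcript length chosen after the data were seen, the palmitic acid response of Irs2 was -0.31 in HKO and -0.43 in FLOX cells (limma adjusted p = 0.00367 and 3.14e-04). Without both FLOX libraries numbered 1 the FLOX value was -0.12 (limma adjusted p = 0.362). In FLOX the Irs2 response also passed without vehicle replicate 3 alone (-0.37, limma adjusted p = 0.0173).

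Irs1 stayed below 1 TPM in every sample, with 0.67, 0.71, 0.56 and 0.57 TPM in HKO cells with palmitic acid and 0.54, 0.73, 0.67 and 0.46 TPM in HKO cells with vehicle. FLOX samples gave 0.51, 0.69, 0.65 and 0.73 TPM with palmitic acid and 0.97, 0.68, 0.52 and 0.54 TPM with vehicle. The groups overlapped, and the log2 fold changes of the fit with no filter ran from -0.064 to 0.049 over the 5 comparisons (limma adjusted p = 0.86 to 1). Irs2 was the more abundant substrate by TPM, at 9.48 ± 1.0 times the TPM of Irs1 in HKO cells with palmitic acid and 11.8 ± 2.9 times with vehicle, and at 6.82 ± 0.55 times in FLOX cells with palmitic acid and 8.42 ± 1.3 times with vehicle.

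Igfbp1, a secreted binding protein of insulin-like growth factors whose gene insulin represses and FOXO1 activates, differed most between the genotypes among the insulin signalling genes. It had 478, 499, 473 and 493 TPM in HKO cells with palmitic acid and 477, 498, 473 and 492 TPM in HKO cells with vehicle. In FLOX cells it had 259, 264, 259 and 251 TPM with palmitic acid and 339, 332, 311 and 312 TPM with vehicle. The HKO groups overlapped and lay above all FLOX samples, and in FLOX cells the palmitic acid samples lay below the vehicle samples. HKO minus FLOX was 0.91 ± 0.033 with palmitic acid and 0.58 ± 0.033 with vehicle (limma adjusted p = 2.35e-10 and 1.09e-08). Palmitic acid gave 0.0028 ± 0.033 in HKO and -0.32 ± 0.033 in FLOX cells (limma adjusted p = 0.959 and 2.12e-06), and these responses differed by 0.33 ± 0.047 (limma adjusted p = 0.0115). The HKO value depended on the scaling: it passed as a fall with median-ratio scaling (-0.12, limma adjusted p = 0.0218) and with the length correction (-0.11, limma adjusted p = 0.0131). The call of the difference of the responses was lost in 4 of 26 alternatives, with 0.30 under median-ratio scaling (limma adjusted p = 0.0526) and 0.33 with the replicate block (0.109). The insulin receptor, Insr, averaged 8.63 ± 1.0 TPM in HKO cells with palmitic acid and 9.65 ± 1.4 TPM with vehicle, against 10.1 ± 2.3 TPM and 9.01 ± 1.7 TPM in FLOX cells, and was called in no comparison, although its FLOX response passed without both FLOX libraries numbered 1 (0.38, limma adjusted p = 0.028). The glucagon receptor, Gcgr, was lower with palmitic acid in both genotypes, at -0.32 ± 0.059 in HKO cells (limma adjusted p = 4.04e-04) and -0.22 ± 0.059 in FLOX cells (limma adjusted p = 0.0101).

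**Figure D2:**
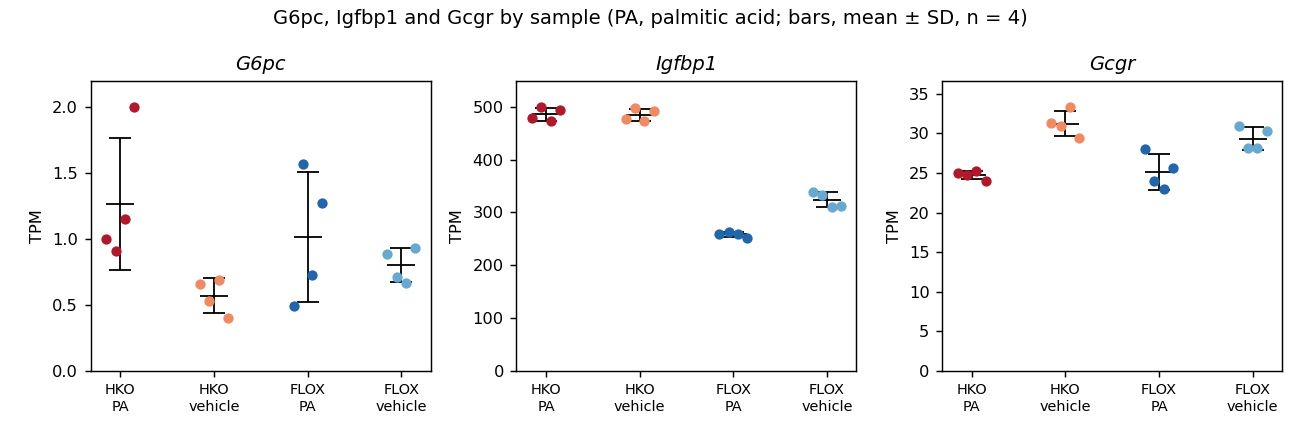
TPM (vertical axes, from 0) of G6pc, Igfbp1 and Gcgr in each sample, with points for samples and bars for mean ± SD (n = 4, PA is palmitic acid). Igfbp1 averaged 486 TPM in HKO against 258 TPM in FLOX cells with palmitic acid, and the G6pc groups of FLOX cells overlapped.

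**Figure D3:**
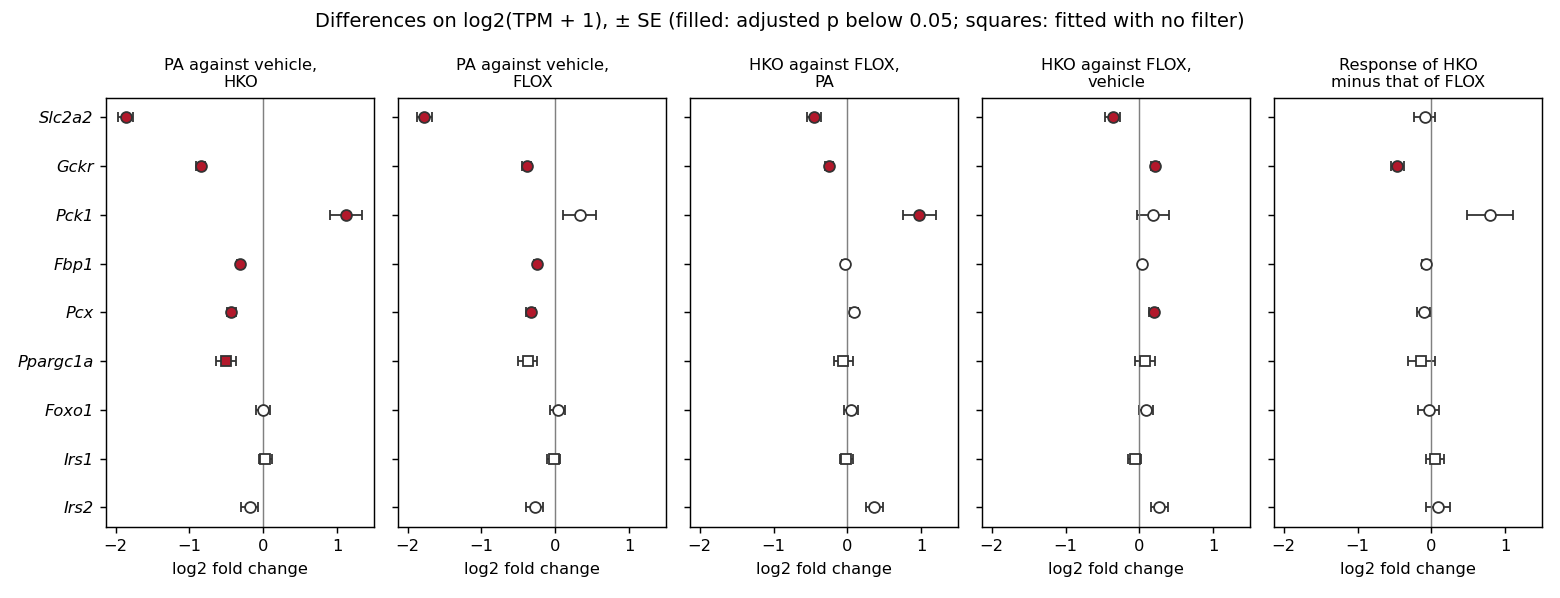
Differences of the 9 members (rows) on log2(TPM + 1), in 5 comparisons (panels), as fitted values with SE. Filled points have an adjusted p below 0.05 and squares mark Ppargc1a and Irs1, which were fitted with no filter. Slc2a2 lies at -1.86 and -1.78 with palmitic acid, and in the panel of the responses' difference only Gckr, at -0.46, is filled.

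Counted over the 7 tested members, 4 were lower (Slc2a2, Gckr, Fbp1 and Pcx) and 1 higher (Pck1) with palmitic acid in HKO cells, where 42.5% of all tested genes were called, 13.1% lower and 29.4% higher. In FLOX cells the same 4 were lower and 0 higher, where 34.4% of all tested genes were called, 11.5% lower and 23% higher. HKO against FLOX gave 1 higher (Pck1) and 2 lower (Slc2a2 and Gckr) with palmitic acid, where 9.74% of genes were called, 4.24% higher and 5.5% lower, and 2 higher (Gckr and Pcx) and 1 lower (Slc2a2) with vehicle, where 11.7% were called, 4.11% higher and 7.56% lower. With median-ratio scaling the share of all calls that were higher was 47% in place of 69.3% for palmitic acid in HKO cells, 45.4% in place of 66.7% in FLOX cells, and 56.6% in place of 35.2% between the genotypes with vehicle. The difference of the responses was called for 1 of 7 members, Gckr, and for 23 of all 11858 genes (0.194%). These comparisons share samples and are not independent. By TPM with vehicle, Fbp1 was the most abundant member in both genotypes (126 ± 4.5 in HKO and 122 ± 4.4 in FLOX cells), followed by Slc2a2 (75.6 ± 4.7 and 97.2 ± 2.8), Gckr (63.4 ± 4.2 and 54.5 ± 1.9) and Pcx (52.2 ± 2.2 and 45.5 ± 3.7). Foxo1 and Irs2 followed, and Pck1, Ppargc1a and Irs1 were the lowest, Ppargc1a overlapping both of the others in each genotype. With palmitic acid Slc2a2 stood below Gckr and Pcx, at 20.2 ± 2.8 in HKO and 27.9 ± 4.0 TPM in FLOX cells.

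In the lists of glucose uptake, gluconeogenesis and glycogen genes too, more genes were lower than higher with palmitic acid. The regulators of gluconeogenic genes, insulin signalling genes in HKO cells, and glucagon and cAMP genes did not follow this. In the list of glucose uptake and phosphorylation, which holds Slc2a2 and Gckr, 4 of 7 tested genes were lower in HKO cells and 0 higher, with a median log2 fold change of -0.85 against 0.11 for all tested genes. In FLOX cells 4 were lower and 1 higher, with a median of -0.38 against 0.096. Of all tested genes 13.1% were lower and 29.4% higher in HKO cells, and 11.5% lower and 23% higher in FLOX cells. Hkdc1, a hexokinase-like gene, was at -1.18 ± 0.12 in HKO and -0.87 ± 0.12 in FLOX cells (limma adjusted p = 1.18e-06 and 4.17e-05). Slc2a1, the GLUT1 transporter, was the 1 higher gene in FLOX cells (0.25 ± 0.090, limma adjusted p = 0.0424), a call lost in 18 of 27 alternatives. Of the fits without a single sample it held without FLOX palmitic acid replicate 1, FLOX vehicle replicate 1, HKO palmitic acid replicate 3 or 4, or HKO vehicle replicate 1.

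Among the genes of gluconeogenesis and glucose release, 12 of 21 were lower and 3 higher in HKO cells (median -0.24), where 13.1% of all tested genes were lower and 29.4% higher. In FLOX cells 12 were lower and 2 higher (median -0.22), where 11.5% of all tested genes were lower and 23% higher. Slc37a4, which carries glucose 6-phosphate into the endoplasmic reticulum, averaged 21.1 ± 0.80 TPM with palmitic acid and 43.7 ± 0.35 TPM with vehicle in HKO cells, and 22.9 ± 0.88 and 45.9 ± 1.5 TPM in FLOX cells. The log2 fold changes were -1.02 ± 0.041 in HKO and -0.97 ± 0.041 in FLOX cells (limma adjusted p = 4.43e-11 and 1.11e-10), and differed by -0.049 ± 0.058 (limma adjusted p = 0.913). The alanine aminotransferase Gpt was at -0.64 ± 0.045 in each genotype (limma adjusted p = 2.45e-08 in HKO and 3.56e-08 in FLOX cells). Pck2, the mitochondrial counterpart of Pck1, was lower where Pck1 was not, at -0.56 ± 0.048 in HKO and -0.40 ± 0.048 in FLOX cells (limma adjusted p = 1.90e-07 and 8.65e-06). Pck2 averaged 25.2 ± 0.49 TPM in HKO and 25.7 ± 0.42 TPM in FLOX cells with palmitic acid, far above Pck1. The higher genes were Pck1, G6pc and Gpd2 in HKO cells and G6pc3 and Gpd2 in FLOX cells, of which Gpd2 and G6pc3 are named here after their values were seen. Of these, G6pc was tested only because palmitic acid samples took it past the filter, and its HKO call was lost in 6 of 26 alternatives.

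Glycogen genes were lower for 7 of 12 and higher for 1 in HKO cells (median -0.29), and lower for 6 and higher for 1 in FLOX cells (median -0.22), against the same shares of all genes (13.1% lower and 29.4% higher in HKO, 11.5% and 23% in FLOX cells). Gys2, the liver glycogen synthase, averaged 4.51 ± 0.67 TPM with palmitic acid and 13.3 ± 1.0 TPM with vehicle in HKO cells, and 5.10 ± 1.3 and 12.3 ± 0.91 TPM in FLOX cells (log2 scale -1.38 ± 0.12 and -1.15 ± 0.12, limma adjusted p = 2.94e-07 and 2.89e-06). Ugp2, which makes UDP-glucose, was at -1.02 ± 0.042 in HKO and -0.78 ± 0.042 in FLOX cells (limma adjusted p = 5.31e-11 and 1.43e-09). Its level was higher in HKO than in FLOX cells, by 0.22 ± 0.042 with palmitic acid and 0.46 ± 0.042 with vehicle (limma adjusted p = 0.00293 and 2.31e-06).

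**Figure D4:**
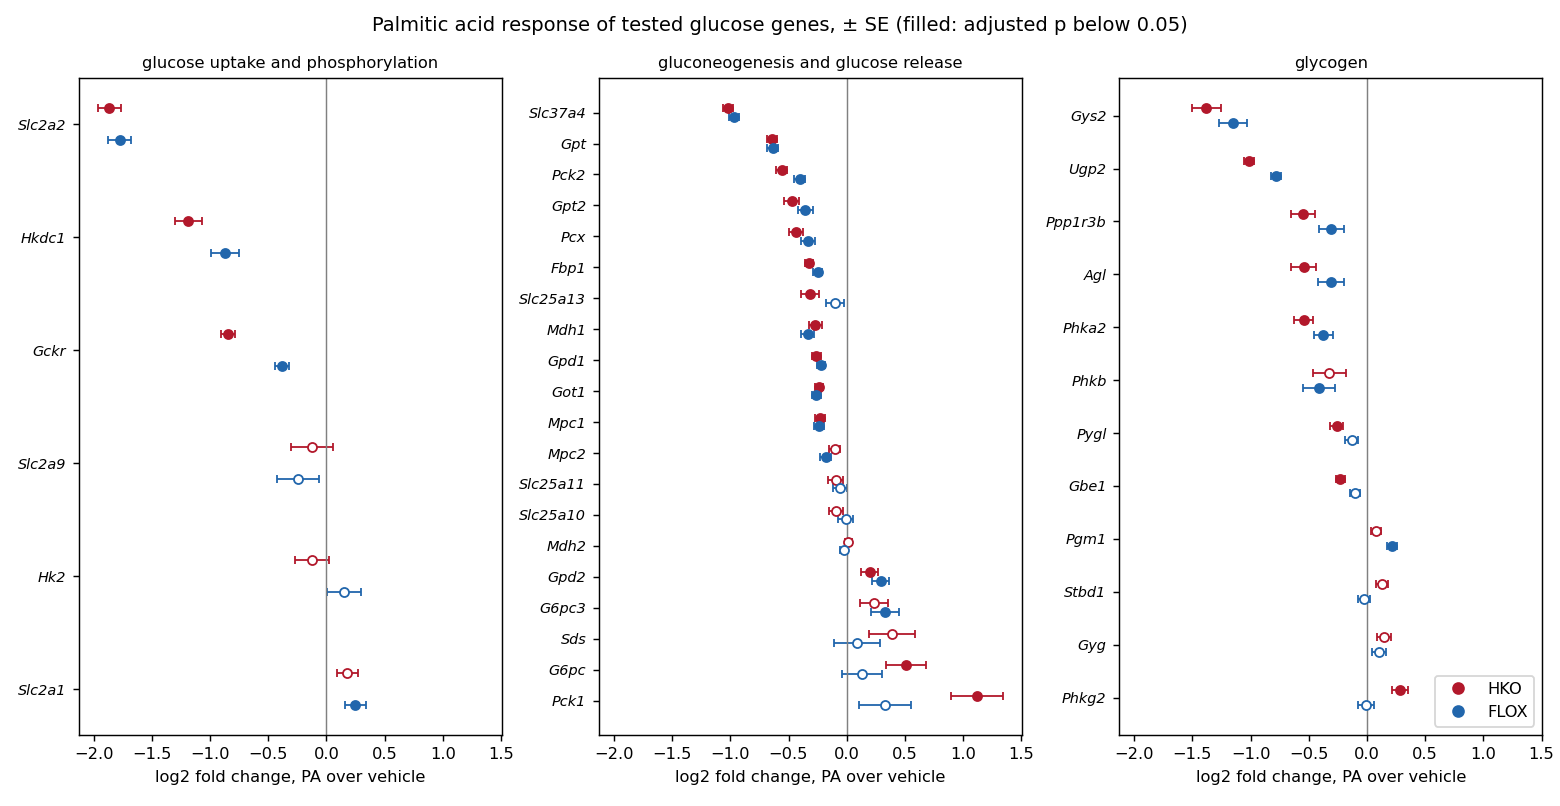
Log2 fold changes of palmitic acid over vehicle (horizontal axes, log2(TPM + 1) scale, ± SE) for tested genes of 3 lists (not every gene is shown), with HKO above FLOX for each gene and filled points for an adjusted p below 0.05. Slc2a2, Slc37a4, Gys2 and Ugp2 lie at the left in both genotypes, and Pck1 is farthest to the right, at 1.12 in HKO cells.

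Of the regulators of gluconeogenic genes 4 of 15 were higher and 2 lower with palmitic acid in HKO cells (median 0.092, where 29.4% of all genes were higher and 13.1% lower) and 2 higher and 1 lower in FLOX cells (median 0.12, where 23% were higher and 11.5% lower). Klf15, a factor that promotes amino acid use in gluconeogenesis, was at -0.71 ± 0.093 in HKO and -0.85 ± 0.093 in FLOX cells (limma adjusted p = 1.67e-05 and 4.01e-06). Crtc2, the cAMP-responsive coactivator of CREB, averaged 15.4 ± 1.6 TPM with palmitic acid and 11.0 ± 0.47 TPM with vehicle in HKO cells (log2 fold change 0.45 ± 0.070, limma adjusted p = 9.82e-05). Between genotypes with palmitic acid 4 of these 15 were higher in HKO cells and 0 lower (4.24% and 5.5% of all genes), among them Crtc2 (0.30 ± 0.070, limma adjusted p = 0.0117) and Cebpb (0.68 ± 0.17, limma adjusted p = 0.0183), a CREB target and activator of Pck1. The others of the 4 were Cebpa (0.30 ± 0.078, limma adjusted p = 0.0233) and Sik1, a kinase that restrains Crtc2 (0.35 ± 0.10, limma adjusted p = 0.0421). With vehicle 1 was higher (4.11% of all genes), again Sik1 (0.40 ± 0.10, limma adjusted p = 0.0201). The Cebpb call was lost in 4 of 27 alternatives, among them without FLOX palmitic acid replicate 3 or 4 or HKO palmitic acid replicate 1 (limma adjusted p = 0.0523, 0.0507 and 0.062). The Sik1 call with vehicle was lost without FLOX vehicle replicate 3 or 4 or HKO vehicle replicate 3 (0.061, 0.0676 and 0.0695). With palmitic acid the Sik1 call was lost in 16 of 27 alternatives and the Cebpa call in 5. Of 23 insulin signalling genes 5 were higher and 2 lower in HKO cells (median 0.088), where 29.4% of all genes were higher and 13.1% lower. In FLOX cells 2 were higher and 4 lower (median 0.069), where 23% of all genes were higher and 11.5% lower. Pik3r1, the regulatory subunit of phosphoinositide 3-kinase, was lower in both, at -0.57 ± 0.10 in HKO and -0.32 ± 0.10 in FLOX cells (limma adjusted p = 2.78e-04 and 0.0232). The FLOX call of Pik3r1 was lost in 6 of 27 alternatives, with limma adjusted p up to 0.14. Among them were the fits without FLOX palmitic acid replicate 1 or 4 or FLOX vehicle replicate 1 or 4 (limma adjusted p = 0.0601, 0.0559, 0.0656 and 0.0518). In HKO against FLOX cells Trib3, a pseudokinase that binds AKT, stood at 0.39 ± 0.061 and Socs3, a feedback inhibitor of cytokine and insulin signalling, at 0.46 ± 0.096 with palmitic acid (limma adjusted p = 4.64e-04 and 0.0061). With vehicle Socs3 was at 0.33 ± 0.096 (limma adjusted p = 0.0359), a call lost in 10 of 26 alternatives, and Trib3 at -0.018 ± 0.061 (0.907). Of the 23 genes 3 were higher and 0 lower in HKO cells with palmitic acid (4.24% and 5.5% of all genes). With vehicle 2 were higher and 0 lower (4.11% and 7.56%). Of 11 glucagon and cAMP genes 1 was higher and 1 lower in each genotype, against the same shares of all genes. The higher gene in HKO cells was Gnas (0.12 ± 0.038, limma adjusted p = 0.019). Its call was lost in 5 of 27 alternatives, and its sign changed in 2 others.

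Most hepatocyte markers were lower too. Of 12 markers 10 were lower with palmitic acid in HKO cells and 9 in FLOX cells, and 0 were higher, where 13.1% and 11.5% of all genes were lower. The markers differed between genotypes too. With vehicle 5 were higher and 3 lower in HKO than in FLOX cells (4.11% and 7.56% of all genes). With palmitic acid 6 were higher and 3 lower (4.24% and 5.5% of all genes). Their summed level was 48753 to 50114 TPM with palmitic acid and 62924 to 64151 TPM with vehicle in HKO cells, and 46237 to 47780 and 58885 to 59625 TPM in FLOX cells. The folds of Slc2a2 and Gys2 were larger than that of any of the 12 hepatocyte markers. Of these markers Cps1 was lowest at -0.66 in HKO and -0.69 in FLOX cells. Among the other tested members that were lower, Gckr passed Cps1 in HKO cells (-0.85) but not in FLOX cells (-0.38). Fbp1 (-0.32 in HKO and -0.25 in FLOX cells) and Pcx (-0.44 and -0.33) passed it in neither. Markers of other cells varied by list. Of 9 macrophage markers 2 reached 1 TPM, with sums of 81.2 to 107 TPM with palmitic acid and 60.5 to 70.1 TPM with vehicle in HKO cells, and 56 to 68.6 and 48.7 to 55.1 TPM in FLOX cells, mostly Cd68. Of 6 cholangiocyte markers 5 reached it, with sums of 338 to 386 and 299 to 325 TPM in HKO cells and 197 to 242 and 180 to 192 TPM in FLOX cells, mostly Spp1. The 4 tested members of that list moved apart, 2 higher and 2 lower in each genotype: Spp1 was at 0.25 in HKO and 0.19 in FLOX cells and Sox9 at 0.62 and 0.41, while Krt19 was at -1.02 in HKO and -0.67 in FLOX cells and Krt7 at -0.99 and -1.38. Of 8 endothelial markers 4 reached it, with sums of 6.19 to 8.74 and 6.9 to 7.73 TPM in HKO cells and 4.94 to 7.61 and 5.98 to 7.58 TPM in FLOX cells, and the stellate cell and lymphocyte sums did not pass 1.52 and 0.46 TPM. Between genotypes Cd68 was called higher in HKO cells with palmitic acid (0.47) and with vehicle (0.29). Of the 4 tested cholangiocyte markers 1 was higher and 0 lower in HKO cells with palmitic acid (Spp1, 0.94). With vehicle 2 were higher (Spp1 at 0.87 and Krt19 at 0.43) and 1 lower (Krt7 at -0.61). The part of these shifts in the results was not tested. Since the median of all tested genes was itself above 0 with palmitic acid (0.11 in HKO cells, 0.006 with median-ratio scaling), the falls are slightly larger, and the rise of Pck1 slightly smaller, when counted from that median.

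The genes with the pattern most like each of the most changed members were found by the root mean square difference of log2(TPM + 1) over the 16 samples, each gene centred on its own mean. For Slc2a2, whose own SD over the samples was 0.972, they were Hamp, the iron hormone hepcidin, at a difference of 0.181, and the reductase Akr1c14, at 0.192. For Gckr (SD 0.348) they were Tm7sf2, a sterol reductase, at 0.0986, and Flna, filamin A, at 0.118. For Pck1 (SD 0.601) they were Efna1, an ephrin ligand, at 0.277, and the long noncoding RNA Neat1, at 0.306, which leaves a larger part of its pattern unmatched.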

How the data were processed

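The RNA of 16 hepatocyte samples was made into stranded total RNA libraries, per the labels' protocols. The values are TPM made by the authors, deposited with 2 decimals for 55416 Ensembl gene IDs. The submitters' processing notes name RSEM 1.3.3 and a human build, GRCh38.p13, although the gene IDs are those of mouse. For the aligner, not given in the sources used here, no step is stated. A gene-name table matched 52083 of the IDs (94%), and G6pc and Gyg were looked up for G6pc1 and Gyg1.

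Genes with at least 1 TPM in at least 4 samples were fitted as log2(TPM + 1), using limma 3.58.1 (R 4.3.3), with 1 mean per group, a mean-variance trend and two-sided p-values adjusted by Benjamini-Hochberg over the genes tested. There were 5 comparisons: the effect of palmitic acid in HKO and in FLOX cells, the effect of genotype with palmitic acid and with vehicle, and the interaction. The fit was tested on simulated data. The members, the 6 lists of glucose genes and the 6 marker lists were chosen with earlier results of these data known. Non-members were named by rule: up to 4 per list and comparison with the largest called change (not all are given) plus G6pc, Gcgr, Insr and Igfbp1. Some genes of the lists count in the totals and are not reported here. Genes of similar pattern were sought for members called with a change of at least 0.5 with palmitic acid.

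Each result was recomputed after a change of pseudocount to 0.1, without the filter or with it at 5 TPM, after quantile normalization or median-ratio scaling, with sample weights, without the trend, with the replicate block, on the 2 groups compared alone, and without each sample in turn. A correction for transcript length and leaving out both FLOX libraries numbered 1 were chosen after seeing the data. Promoter sequences are RefSeq's, on GRCm38.p6.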

Additional observations from a re-analysis of the deposited data

Results flagged for a closer look

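The response of Gckr to palmitic acid in HKO minus that in FLOX cells, -0.46 on the log2 scale (limma adjusted p = 0.0386), differed between the genotypes by the interaction term. Within groups of 4 samples, 36 of which were checked, 2 held a sample far from the others: Pcx was 31.98 TPM in FLOX palmitic acid replicate 1, against 36.9 to 37.7 TPM in the rest of its group, and Ppargc1a was 1.4 TPM in FLOX vehicle replicate 1, against 0.55 to 0.68 TPM. Chance flags about 1 group in 20 in this way. These are the samples with the highest and the lowest score on the third principal component.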

How the results depend on the processing

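Of 45 results on members 17 were called. Of these 9 kept their call in every alternative run, 8 lost it in at least 1 and 0 changed sign; of 28 not called, 5 passed in at least 1 alternative and 12 changed sign. Of 87 results on other named genes 72 were called. Of these 53 kept their call throughout, 19 lost it in at least 1 alternative and 1 changed sign (Gnas with palmitic acid in HKO cells). The cause of these changes was not tested, and the unknown depth limits Pck1, G6pc, Ppargc1a and Irs1 most. The count of members higher with palmitic acid in HKO cells was 0 with the filter of 5 TPM, which removes Pck1. Between genotypes with palmitic acid, members higher were 2 with a pseudocount of 0.1, median-ratio scaling, quantile normalization, sample weights or the length correction (Irs2 joining Pck1), 0 with the filter of 5 TPM or only the 2 groups compared, and 1 to 2 without single samples, and members lower were 0 with only the 2 groups compared. With vehicle, members higher were 0 without the filter, 1 without the trend or with only the 2 groups compared, and 0 to 3 without single samples, and members lower were 0 without the filter, with median-ratio scaling, quantile normalization or the length correction, and 0 to 1 without single samples. Members with a lower response in HKO cells (interaction) were 0 without the filter, without the trend or without both FLOX libraries numbered 1, and 0 to 1 without single samples.

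The labels do not say whether the replicate numbers pair the samples. In their deviations from group means, same-numbered palmitic acid and vehicle samples correlated at -0.15 to 0.0861. Same-numbered HKO and FLOX samples correlated at -0.112 to 0.112, so that not every pair passed 0.1. These correlations cannot decide whether same-numbered samples shared an animal or a culture. Some samples did correlate best with their own number: FLOX vehicle and palmitic acid replicate 4 (0.0357), HKO vehicle and palmitic acid replicates 2 and 4 (0.0861 and 0.0638), and HKO and FLOX palmitic acid replicates 1 and 2 (0.112 and 0.0887); the other pairs did not. With the replicate block, members higher between genotypes with vehicle were 1 and members lower in the interaction 0; Pcx with vehicle had a limma adjusted p of 0.0834, the Gckr interaction 0.152 and Ppargc1a with palmitic acid in HKO cells 0.0629, and the interaction was called for 3 higher and 0 lower genes, against 18 and 5.

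Over all genes, median-ratio scaling gave 1647 higher in FLOX and 2103 higher and 2369 lower in HKO cells with palmitic acid, against 2726, 3491 and 1549, and 513 lower between genotypes with vehicle, against 897. The length correction gave 2063 lower in FLOX and 2403 lower in HKO cells, against 1358 and 1549. Between genotypes with vehicle, genes higher were 792 with sample weights, 732 with the length correction and 321 without HKO vehicle replicate 2, against 487. With palmitic acid, fitting only the 2 groups compared gave 319 higher and 350 lower, against 503 and 652. The interaction gave 29 higher and 11 lower with sample weights, 4 and 1 without the trend, 10 and 10 without both FLOX libraries numbered 1, 5 higher with median-ratio scaling, 3 lower without the filter and 9 lower with the length correction; single samples left out took it as low as 7 higher and 1 lower.

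Signs changed as follows (log2 values); among them the fall of Igfbp1 in HKO cells passed the threshold with median-ratio scaling and the length correction. With palmitic acid in FLOX cells Foxo1 was -0.056 (median-ratio), -0.067 (quantile) and -0.13 (length), and -0.023 to 0.116 without single samples, and Irs1 was 0.029 (weights), 0.098 (without both FLOX libraries numbered 1) and -0.067 to 0.058. In HKO cells Irs1 was -0.019, -0.012 and -0.073 (median-ratio, quantile, length) and -0.016 to 0.065, Foxo1 -0.06 to 0.032, Gnas -0.002 and -0.003 (median-ratio, length), and Igfbp1 -0.12, -0.006 and -0.106 (median-ratio, quantile, length) and -0.01 to 0.015. Between genotypes with vehicle Irs1 was 0.016 without both FLOX libraries numbered 1 and -0.108 to 0.016, and Insr -0.006 to 0.194. With palmitic acid Fbp1 was 0.009 and 0.002 (quantile, length), Foxo1 -0.003 and -0.032 (weights, without both) and -0.032 to 0.097, Gcgr 0.016 and 0.033 (weights, without both) and -0.061 to 0.033, Irs1 -0.055 to 0.01, and Ppargc1a -0.097 to 0. For the interaction Foxo1 was 0.005 (length) and -0.12 to 0.019, Irs1 -0.005 and -0.072 (weights, without both) and -0.031 to 0.094, and Irs2 -0.061 (without both) and -0.007 to 0.187.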

Other observations

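Igfbp1 gave nearly the same value in HKO samples of the same number: each palmitic acid sample lay within 0.011% to 0.28% of the vehicle sample with its number. Of the 4164 genes with a mean of at least 20 TPM in HKO vehicle samples and no sample at 0, Igfbp1 was the 1 whose 4 pairs all lay within 0.5%. In FLOX cells 0 of 4188 genes did so, and the gaps of Igfbp1 were 17% to 24%. The gene was looked at in this way after its values were seen.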
